A study of Mus musculus with 25 samples.

Results

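Mouse pancreatic islets labelled KO_REG3B-Fc were set against islets labelled KO_PBS, 2 libraries each, so the comparison uses 4 of the 25 samples of a study of BAF60C in type 2 diabetes. BAF60C is a subunit of the SWI/SNF chromatin remodelling complex and is encoded by Smarcd3. The members are all 17549 genes in the deposited table of these libraries, taken as FPKM (sequenced fragments per kilobase of a gene's transcript, relative to library size), of which 11789 had at least 1 FPKM in at least 2 libraries and were tested. KO_REG3B-Fc islets are knockout islets that received REG3B-Fc, by its name the REG3B protein joined to an antibody Fc part, and KO_PBS islets are knockout islets that received phosphate-buffered saline. Both groups carry the KO genotype, and the labels used here do not say which gene KO refers to, how REG3B-Fc or PBS was given, at what dose, for how long, or the strain, sex and age of the mice. The same table holds 2 CTR_PBS libraries, from control islets that received PBS, and these are given beside the knockout values. Another table holds 2 db_REG3B and 2 db_GFP libraries, labelled for REG3B and for the fluorescent protein GFP in islets labelled db, which share no library with the knockout comparison. Per the labels, polyadenylated RNA was read as paired ends on a BGISEQ-500, and a sample combines the islets of 3 or more mice. Nothing in the labels says that the 2 libraries of a group came from separate pools, so the p-values measure the spread between libraries, which may be technical.

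Islets are clusters of hormone cells within the exocrine pancreas. Beta cells secrete insulin, alpha cells glucagon, delta cells somatostatin, PP cells pancreatic polypeptide and the rare epsilon cells ghrelin. The surrounding acinar cells make the digestive enzymes and are often carried along when islets are isolated. REG proteins are small secreted C-type lectins that acinar cells and the gut lining release, in larger amounts when the tissue is inflamed or injured. EXTL3, a glycosyltransferase of the exostosin family, has been described as a receptor for REG proteins. In these bulk libraries fewer cells of a type and less RNA per cell cannot be told apart.

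The mouse Reg genes lie together on chromosome 6, and the start regions of Reg3b, Reg3g and Reg2 are shown because these genes encode the mouse's own counterparts of the protein that was given. The somatostatin gene Sst, on chromosome 16, is shown as a hormone gene that rose and whose start region holds the cAMP response element. The sequences are RefSeq promoters of build GRCm38.p6, 250 bases before to 50 bases after the gene start, and run 5′ to 3′ on the gene's strand. Capitals mark TTCNNNGAA (the STAT-type site) and TATAAA (the TATA box) in the Reg promoters and TGACGTCA (the cAMP response element) and TATAAA in Sst, on either strand. No marked motif overlaps another.
Reg3b chr6:78370635-78370934, plus strand: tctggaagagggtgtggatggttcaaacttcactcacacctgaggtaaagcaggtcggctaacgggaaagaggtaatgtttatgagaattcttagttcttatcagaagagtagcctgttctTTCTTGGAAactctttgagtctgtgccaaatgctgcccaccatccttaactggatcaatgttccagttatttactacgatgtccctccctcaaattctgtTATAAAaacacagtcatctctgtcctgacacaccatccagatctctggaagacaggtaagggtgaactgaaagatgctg
Reg3g chr6:78468825-78469124, minus strand: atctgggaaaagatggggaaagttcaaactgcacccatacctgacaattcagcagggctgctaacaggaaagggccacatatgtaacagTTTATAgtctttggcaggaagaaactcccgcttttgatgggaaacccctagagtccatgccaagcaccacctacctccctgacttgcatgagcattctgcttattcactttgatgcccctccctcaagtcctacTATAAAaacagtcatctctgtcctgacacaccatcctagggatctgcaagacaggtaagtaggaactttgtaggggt
Reg2 chr6:78404905-78405204, plus strand: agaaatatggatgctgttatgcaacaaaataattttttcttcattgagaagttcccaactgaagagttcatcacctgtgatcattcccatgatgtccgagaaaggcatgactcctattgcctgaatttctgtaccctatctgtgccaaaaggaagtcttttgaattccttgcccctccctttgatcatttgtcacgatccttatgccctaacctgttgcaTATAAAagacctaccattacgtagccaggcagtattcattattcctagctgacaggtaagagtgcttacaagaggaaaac
Sst chr16:23890795-23891094, minus strand: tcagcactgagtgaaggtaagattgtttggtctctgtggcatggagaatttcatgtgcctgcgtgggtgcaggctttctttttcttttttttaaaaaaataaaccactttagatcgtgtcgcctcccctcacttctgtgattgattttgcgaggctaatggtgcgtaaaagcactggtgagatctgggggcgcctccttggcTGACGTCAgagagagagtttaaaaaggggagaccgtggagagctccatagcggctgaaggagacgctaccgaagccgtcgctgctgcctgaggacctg
TTCNNNGAA began 129 bases before the start of Reg3b and was found in 2 of 6 Reg promoters, against 8.30% of all 32851 promoters of this length. TATAAA was found in 4 of 6 Reg promoters, against 13.6% of all promoters, and TGACGTCA, which began 48 bases before the start of Sst, in 1.79% of all promoters.

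Before any change is read, the libraries differed in make-up. Ins1 and Ins2 together took 58.1 and 57.7% of summed FPKM in KO_REG3B-Fc, 38.9 and 38.2% in KO_PBS, and 57.5 and 58.4% in CTR_PBS. The 33 acinar digestive enzyme genes took 17.2 and 17.4% in KO_REG3B-Fc, 40.7 and 41.8% in KO_PBS, and 20.0 and 19.8% in CTR_PBS. The KO_PBS libraries thus stood apart from the other 4 in both shares, without overlap. Between 11153 and 11511 genes per library of the table had at least 1 FPKM, and the sequencing depth is unknown. The beta cell identity of the tissue was plain from Ins1, Ins2, Ucn3 and Mafa, which were present in all 6 libraries.

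**Figure D1:**
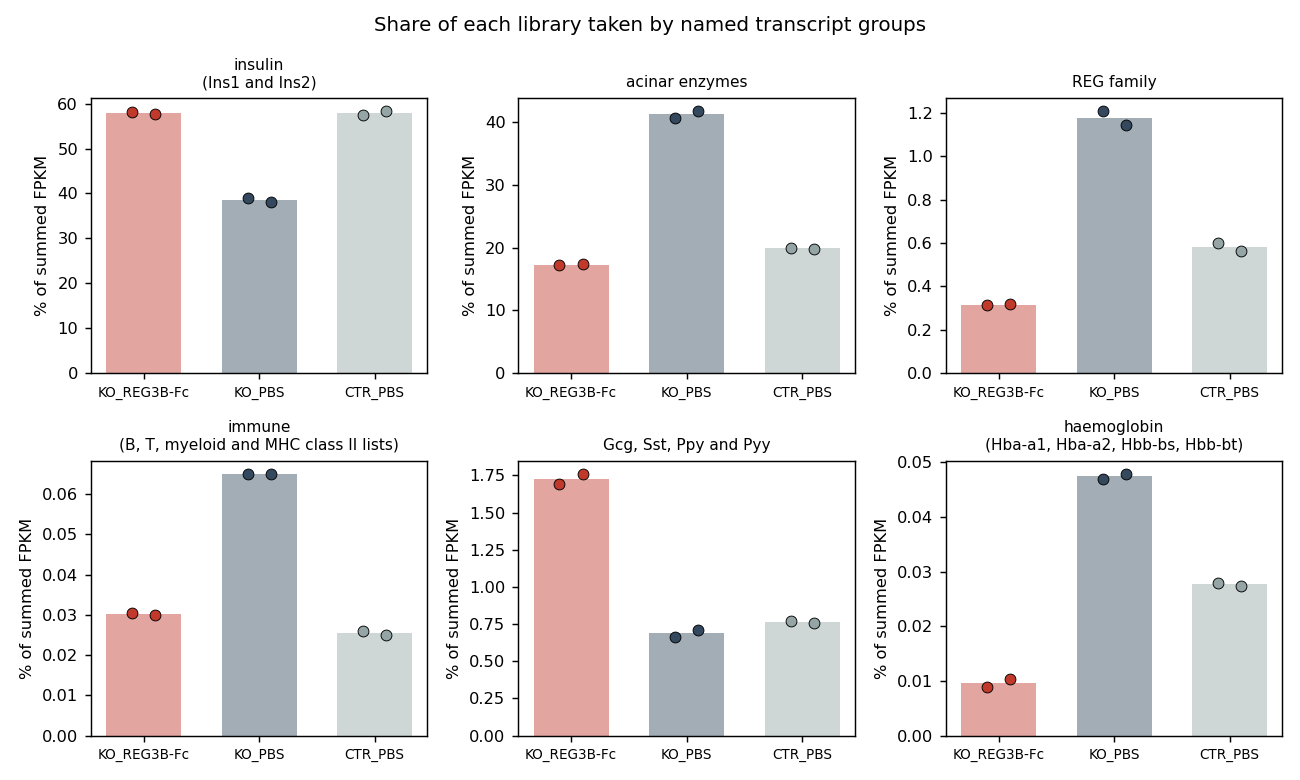
Percent of summed FPKM (vertical axes, from 0) taken by 6 transcript groups in KO_REG3B-Fc, KO_PBS and CTR_PBS islets; points are the 2 libraries of a group and bars their mean. Acinar enzymes stand at 17.2 and 17.4% in KO_REG3B-Fc against 40.7 and 41.8% in KO_PBS, while the 4 hormones Gcg, Sst, Ppy and Pyy stand at 1.69 and 1.76% against 0.665 and 0.709%.

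The deposited FPKM of the median gene was higher by 0.53 on the log2 scale in KO_REG3B-Fc than in KO_PBS. With an equal sum without acinar, REG and insulin genes it was higher by 0.13. How far the shares account for the shift was not tested. Because the median gene differed, each library was scaled so that its typical gene matched that of the geometric mean library (median scaling). After that the median gene stood at 0.00. All log2 changes below are KO_REG3B-Fc minus KO_PBS on log2(median-scaled FPKM + 1), which understates the change of low genes, whereas FPKM values are as deposited. On this scale 2361 of 11789 genes (20.0%) rose and 2927 (24.8%) fell in KO_REG3B-Fc islets by limma at an adjusted p under 0.05. The libraries of KO_REG3B-Fc and KO_PBS did not overlap for 4250 genes (36.1%) that stood higher and 4298 (36.5%) that stood lower. Changes were mostly small, with 88.9% of genes within 0.5 of 0. The split depended on the scale: without scaling 86.2% of genes were called higher and 6.97% lower, and with libraries scaled to endocrine genes 3.14% were called higher and 68.0% lower. The endocrine scale moved the median gene to -0.26. It was set by the beta cell transcription factor, maturity and surface, hormone processing and granule, and exocytosis lists, without Ins1 and Ins2. The medians of these lists are therefore held near 0 on that scale by construction. For orientation, 659 genes (5.59%) were called higher and 601 (5.10%) lower in KO_REG3B-Fc than in CTR_PBS. In the authors' deposited table, 1691 genes (14.3%) were higher and 1829 (15.5%) lower in KO_REG3B-Fc at an adjusted p under 0.05, and all 1308 genes with a change beyond 0.5 after median scaling have the same sign there.

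**Figure D2:**
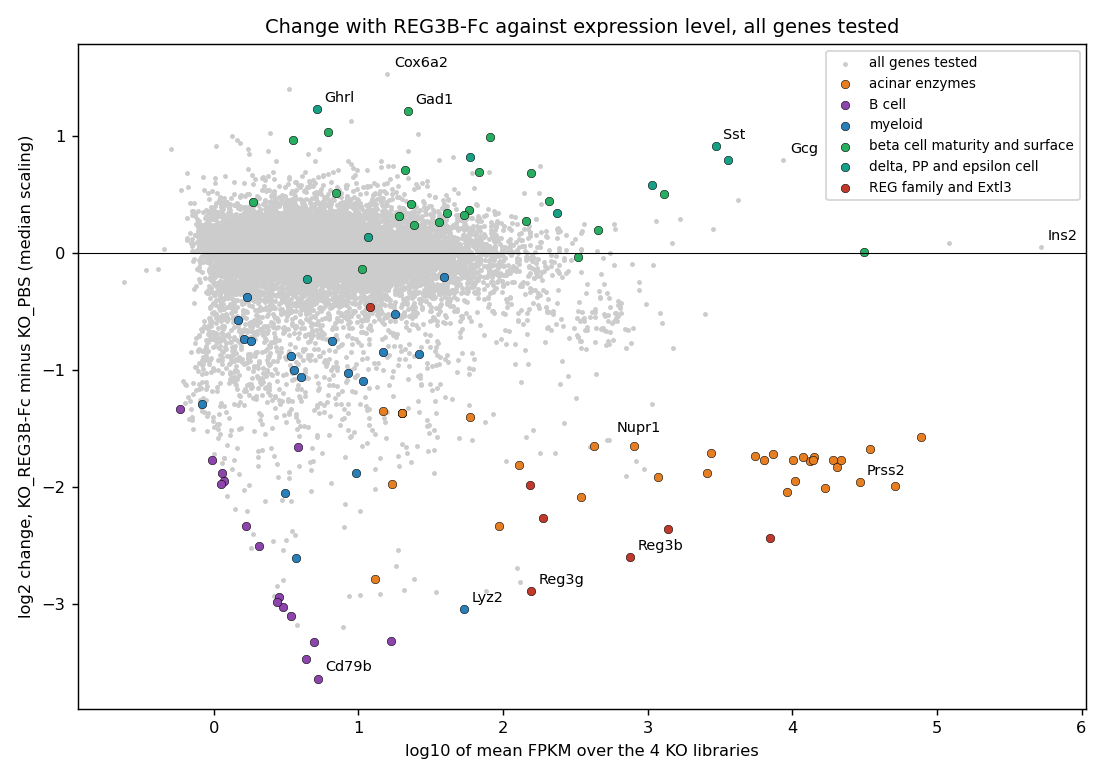
Log2 change of each tested gene, KO_REG3B-Fc minus KO_PBS after median scaling (vertical axis), against the log10 of its mean FPKM over the 4 KO libraries (horizontal axis); coloured points are members of 6 gene lists and grey points all genes. Most genes lie within 0.5 of 0, the 33 acinar enzymes range from -2.78 to -1.35, and Cd79b is lowest of the labelled genes at -3.64.

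Smarcd3, the gene of the study's title protein, was low in every library. It had 1.28 and 1.21 FPKM in KO_REG3B-Fc, 0.75 and 1.09 FPKM in KO_PBS, with 1.03 and 1.15 FPKM in CTR_PBS. It did not pass the test in KO_REG3B-Fc against KO_PBS (-0.10, SE 0.10, adjusted p = 0.457), and on the deposited scale the sign turned to 0.23 (adjusted p = 0.0339). On the endocrine scale it was called lower, at -0.27 (adjusted p = 0.0492), so these scales gave calls in opposite directions. Without KO_PBS replicate 1 the change was -0.26 (adjusted p = 0.0392) and without KO_PBS replicate 2 it was 0.06, so a single KO_PBS library decides its sign. As the labels do not tie KO to a gene, this level neither bears out nor contradicts the genotype label. Of 20 tested SWI/SNF subunit genes, 11 were called higher and 2 lower (median 0.15), where 20.0% and 24.8% of all genes were. The median turned to -0.13 on the endocrine scale, where 0 were called higher and 11 lower, against 3.14% and 68.0% of all genes. On the deposited scale all 20 were called higher, where 86.2% of all genes were.

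Endogenous Reg transcripts were lower in REG3B-Fc treated islets. Reg3b itself (chromosome 6, 78370885 to 78373466, protein coding) had 303.82 and 311.86 FPKM in KO_REG3B-Fc, 1226.52 and 1180.61 FPKM in KO_PBS, with 667.18 and 633.85 FPKM in CTR_PBS. It was lowest in the treated islets, below all 4 PBS libraries, and fell by 2.60 on the log2 scale (SE 0.04, adjusted p = 1e-08). All 6 Reg genes tested fell, from -1.98 for Reg3a to -2.89 for Reg3g, and all 6 fell on the deposited and endocrine scales too. This list was chosen with results of these data known, so its direction is not independent evidence.

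Reg3g, an antibacterial lectin of the gut and pancreas, had 53.2 and 53.5 FPKM in KO_REG3B-Fc against 250.91 and 268.37 FPKM in KO_PBS. Reg1, the first described pancreatic stone protein gene, had 3110.94 and 3145.93 FPKM in KO_REG3B-Fc against 11160 and 10674.5 FPKM in KO_PBS. Reg2 had 649.45 and 624.61 FPKM in KO_REG3B-Fc, 2244.14 and 1980.43 FPKM in KO_PBS, with 1888.18 and 1790.84 FPKM in CTR_PBS. Reg3d, closely related in sequence to the other Reg3 genes so that reads may be split between them, had 91.44 and 91.97 FPKM in KO_REG3B-Fc against 288.47 and 283.09 FPKM in KO_PBS. Reg2 and Reg3d also lay below CTR_PBS, by -1.63 and -1.33 on the log2 scale (adjusted p = 2.49e-06 and 9.43e-07). Extl3 was near level on the deposited scale, at 12.66 and 12.47 FPKM in KO_REG3B-Fc against 11.68 and 11.16 FPKM in KO_PBS. After median scaling it fell by 0.46 (SE 0.05, adjusted p = 9.24e-05), while on the deposited scale the sign turned to 0.13.

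Acinar cells release REG proteins, and the Reg genes and the acinar enzymes both fell on the same scale. Whether these falls have a shared source was not tested. When libraries were scaled to the median acinar enzyme gene, a scale chosen after the values were seen, Reg3g stood at -1.13 (SE 0.06, adjusted p = 1.2e-10) and Reg3b at -0.82 (SE 0.05, adjusted p = 7.05e-10). Reg1, Reg2 and Reg3d stood at -0.66, -0.58 and -0.49, and Reg3a at -0.22. The 33 acinar enzymes themselves spread from -1.20 for Prss1 to 0.35 for Amy2b on that scale. Reg3g, Reg3b and Reg1 lay below every acinar enzyme but Prss1, whose reads may be shared with near-identical copies. The next lowest enzyme was Prss3 at -0.58, level with Reg2. Per 1000 FPKM of Prss2, an anionic trypsinogen, Reg3b had 18.5 ± 0.178 FPKM in KO_REG3B-Fc, 28.9 ± 1.78 FPKM in KO_PBS and 30.1 ± 2.04 FPKM in CTR_PBS (SD, n = 2 each). Reg3g had 3.20 ± 0.0155 per 1000 FPKM of Prss2 in KO_REG3B-Fc, 6.22 ± 0.0787 in KO_PBS and 5.68 ± 0.0439 in CTR_PBS. In both ratios the treated libraries lay below the 4 PBS libraries. A comparison of 2 libraries with 2 cannot give an exact permutation p below 0.333.

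**Figure D3:**
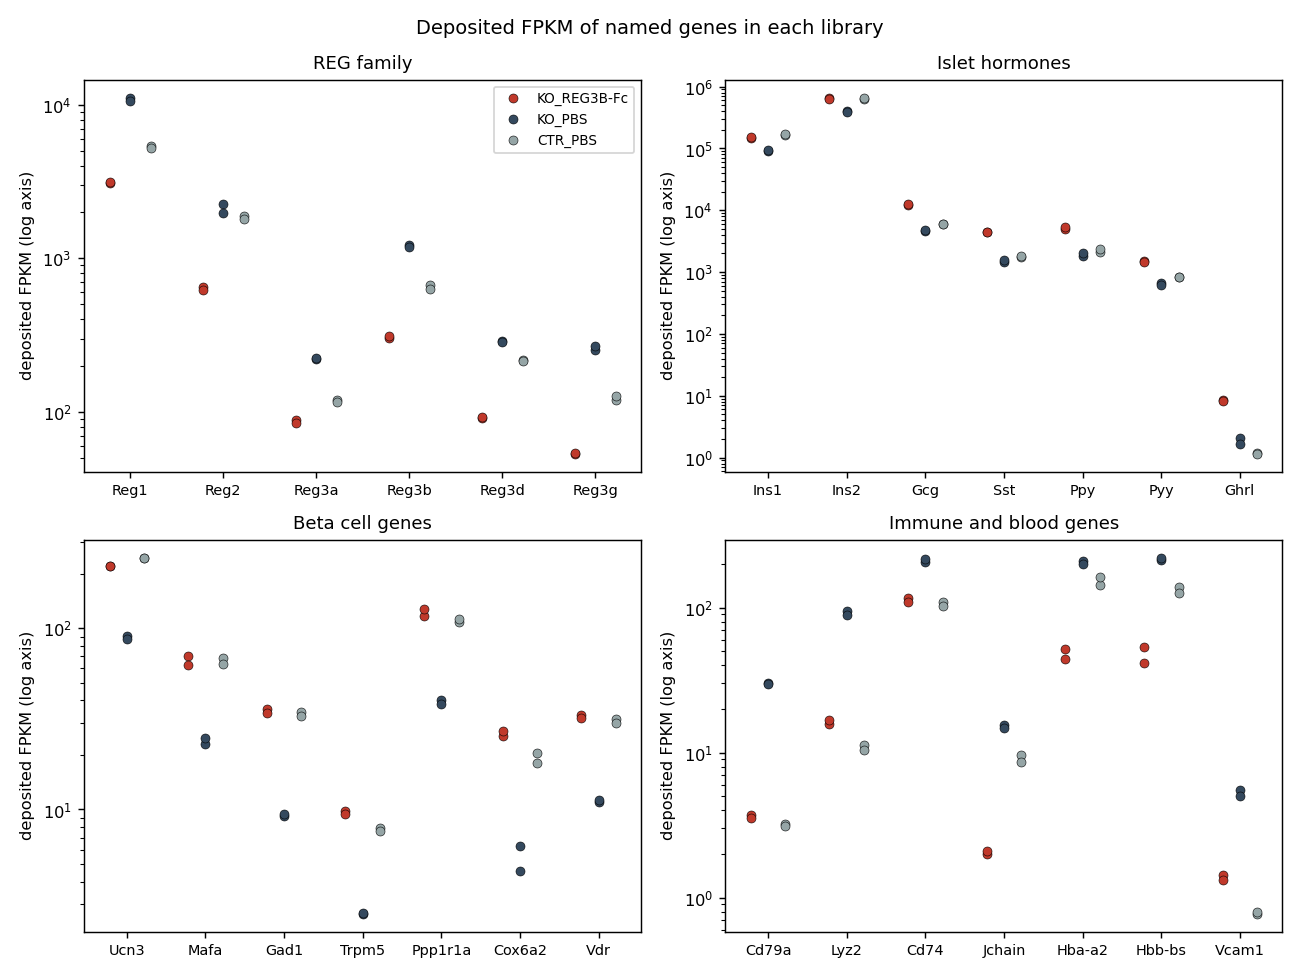
Deposited FPKM (vertical log axes) of Reg genes, islet hormones, beta cell genes, and immune and blood genes in each library of KO_REG3B-Fc, KO_PBS and CTR_PBS islets; each point is 1 library. Reg3b is lowest in KO_REG3B-Fc (303.82 and 311.86 FPKM), Gcg and Sst are highest there, and Cd79a is high only in KO_PBS of the 3 groups shown (30.26 and 29.93 FPKM).

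The digestive enzymes fell as a group. All 33 tested acinar enzyme genes were called lower, with a median of -1.77 and a range from -2.78 to -1.35, and all 33 were also called lower on the deposited and endocrine scales. Prss2 had 16560 and 16768 FPKM in KO_REG3B-Fc, 40725.2 and 42786.3 FPKM in KO_PBS, with 21125.3 and 22091.3 FPKM in CTR_PBS. It fell by 1.96 (SE 0.06, adjusted p = 9.12e-08). The treated libraries were nearer to CTR_PBS than to KO_PBS, and the median of the enzymes against CTR_PBS was -0.29. Sycn, a zymogen granule protein, had 5022.67 and 4997.59 FPKM in KO_REG3B-Fc against 13011 and 13577.4 FPKM in KO_PBS. The trypsinogen genes Prss1 and Try10 have near-identical neighbours, so how their reads were divided is uncertain, and their changes were -2.78 and -2.09.

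Of 10 acinar regulators and secretory helpers, 9 fell and Dnajc12, a co-chaperone, rose by 0.15, a direction that turned on the endocrine scale, where all 10 were called lower. Rbpjl and Ptf1a, partners in the acinar transcription factor complex PTF1, had changes of -1.78 and -1.86. Rbpjl stood at 14.4 and 13.22 FPKM in KO_REG3B-Fc against 33.8 and 31.09 FPKM in KO_PBS. Other exocrine secretory genes outside these lists also fell: Dmbt1, a mucosal scavenger receptor glycoprotein, had 412.01 and 423.19 FPKM in KO_REG3B-Fc against 1028.73 and 985.52 FPKM in KO_PBS. Serpini2, a pancreatic serine protease inhibitor, changed by -1.71, Tmed6, a cargo receptor of the p24 family, by -1.57, and the trefoil peptide gene Tff2 by -1.78. Of 12 tested duct cell genes, among them Tff2, 8 fell and 2 rose, 1 having passed the filter only through KO_PBS. Their median of -0.54 turned to 0.09 on the deposited scale, where 6 were called higher and 4 lower. Muc1, an epithelial mucin, fell by 1.82 and stood at 11.18 and 10.94 FPKM in KO_REG3B-Fc against 26.65 and 27.51 FPKM in KO_PBS.

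Immune transcripts were low in KO_REG3B-Fc and raised in KO_PBS. The 68 genes of the B cell, T cell, myeloid and MHC class II lists took 0.0306 and 0.0299% of summed FPKM in KO_REG3B-Fc, 0.0651 and 0.0651% in KO_PBS, and 0.0260 and 0.0249% in CTR_PBS. The 17 B cell genes in the table summed to 7.37 and 7.9 FPKM in KO_REG3B-Fc, 108.1 and 103.23 FPKM in KO_PBS, with 7.3 and 7.32 FPKM in CTR_PBS. The lymphocyte signal therefore belonged to the KO_PBS libraries, and the acinar enzyme share given above was high in the same libraries. Whether lymphoid or acinar tissue carried along at isolation had a part in these results was not tested.

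Cd79a and Cd79b encode signalling partners of the antigen receptor on B cells. Cd79b had 0.17 and 0.21 FPKM in KO_REG3B-Fc, 9.65 and 10.84 FPKM in KO_PBS, with 0.07 and 0.17 FPKM in CTR_PBS, and fell by 3.64 (SE 0.08, adjusted p = 2.43e-08). Cd79a had 3.73 and 3.55 FPKM in KO_REG3B-Fc against 30.26 and 29.93 FPKM in KO_PBS. The B cell surface protein gene Ms4a1 (CD20) was close to 0 outside KO_PBS. It had 0.02 and 0.06 FPKM in KO_REG3B-Fc against 5.53 and 5.39 FPKM in KO_PBS. It was listed at 0 in both CTR_PBS libraries. All 16 tested B cell genes fell, but 14 of them had reached the 1 FPKM minimum only through KO_PBS and so had to differ.

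The other genes of largest fall were of the same kind. They were Ly6d (-3.47), a surface marker of the B lineage, Cd37 (-3.32), a leukocyte tetraspanin, Plac8 (-3.20), Fcmr (-3.10), the IgM Fc receptor, Cxcl13 (-3.09), a B cell attracting chemokine, Ltb (-2.94), lymphotoxin beta, and H2-DMb2 (-3.18), an MHC class II peptide loading chain. Among them, Cd37, Fcmr, Cxcl13 and H2-DMb2 had reached the 1 FPKM minimum only through KO_PBS and so had to differ. The same held for 14 of the 16 tested genes of the B cell list, to which Ly6d and Ltb also belong. Only 4 of 18 T and NK cell genes in the table passed the low-value filter, all of them through KO_PBS alone, and all 4 fell. Jchain, which joins secreted antibody molecules, had 2.01 and 2.11 FPKM in KO_REG3B-Fc, 15.59 and 14.68 FPKM in KO_PBS, with 9.64 and 8.55 FPKM in CTR_PBS. It lay below CTR_PBS as well, by -1.75 (SE 0.06, adjusted p = 2.83e-06).

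All 19 tested myeloid genes fell, 2 of which had passed the filter only through KO_PBS, with a median of -0.87. Lyz2, the lysozyme of macrophages and granulocytes, had 15.74 and 16.76 FPKM in KO_REG3B-Fc, 94.53 and 88.96 FPKM in KO_PBS, with 11.28 and 10.41 FPKM in CTR_PBS. It fell by 3.04 against KO_PBS (SE 0.05, adjusted p = 1.35e-08) and lay above CTR_PBS by 0.45 (adjusted p = 0.0019). Ptprc, the pan-leukocyte phosphatase CD45, had 1.09 and 1 FPKM in KO_REG3B-Fc against 5.43 and 4.94 FPKM in KO_PBS. All 10 MHC class II genes fell (median -1.37), 4 having passed the filter only through KO_PBS. Cd74, the invariant chain, had 117.06 and 109.88 FPKM in KO_REG3B-Fc, 205.07 and 214.88 FPKM in KO_PBS, with 109.73 and 103.04 FPKM in CTR_PBS. For Cd74 the deposited treated values lay just above those of CTR_PBS, and after median scaling the difference from CTR_PBS was -0.01 (adjusted p = 0.945).

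Of 21 chemokine and adhesion genes 10 were tested and all 10 fell, 4 of them after passing the filter only through KO_PBS. Vcam1, the vascular adhesion molecule for leukocytes, had 1.42 and 1.33 FPKM in KO_REG3B-Fc against 5.53 and 4.98 FPKM in KO_PBS, and fell by 1.87. Ccl5, a T cell attracting chemokine, fell by 1.57, and Ccl21a, which guides lymphocytes into lymphoid tissue, by 2.41. Of 22 interferon response genes 21 fell and Ifi35 was not called, with a median of -0.54 that stood at -0.03 on the deposited scale, where 6 were called higher and 9 lower. B2m, the light chain of MHC class I, had 106.18 and 116.08 FPKM in KO_REG3B-Fc against 152.41 and 155.45 FPKM in KO_PBS and fell by 1.10. Of 11 tested inflammation genes 7 fell and 1 rose, 1 having passed the filter only through KO_PBS, with a median of -0.38 that turned to 0.02 on the deposited scale, where 4 were called higher and 4 lower. Il1r1, the interleukin-1 receptor, was the one that rose (0.34), and on the endocrine scale none was called higher.

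Red blood cell transcripts were lowest in the treated islets. Haemoglobin genes took 0.00897 and 0.0104% of summed FPKM in KO_REG3B-Fc, 0.0469 and 0.0479% in KO_PBS, and 0.0279 and 0.0274% in CTR_PBS. Hba-a1 and Hba-a2 are near-identical copies whose reads may be split, and their changes were -2.89 and -2.69. Hbb-bs, an adult beta-globin, had 41.15 and 53.34 FPKM in KO_REG3B-Fc, 211.43 and 220.58 FPKM in KO_PBS, with 137.78 and 126.63 FPKM in CTR_PBS, and its copy Hbb-bt changed by -2.89. These genes lay below all 4 PBS libraries.

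Matrix and stellate cell genes were lower in KO_REG3B-Fc than in KO_PBS. Of 17 tested, 1 of which had passed the filter only through KO_PBS, 16 fell and Pdgfrb, a receptor of pericytes, was not called, with a median of -0.83. The fall also held on the deposited scale for 13, where 4 were called higher. Col1a1, a fibrillar collagen chain, had 2.5 and 2.2 FPKM in KO_REG3B-Fc, 5.3 and 5.87 FPKM in KO_PBS, with 1.07 and 0.96 FPKM in CTR_PBS. It fell by 1.48 against KO_PBS and lay above CTR_PBS by 0.64 (adjusted p = 0.00132). Col3a1 and the matrix proteoglycan gene Dcn fell by 1.37 and 1.30 and likewise lay above CTR_PBS, by 0.56 and 0.58. Of 15 tested genes on the endothelial list, 9 fell and 3 rose. Among the 3 was Vegfa (0.32), a growth factor gene and not a marker of endothelial cells. The median of -0.29 turned to 0.26 on the deposited scale, where 12 were called higher and 1 lower, near the 86.2% and 6.97% over all genes. On the endocrine scale 0 were called higher and 13 lower, where 3.14% and 68.0% of all genes were. Of 3 tested Schwann cell genes, 1 fell and the others were not called, with a median of 0.16 that turned to -0.05 on the endocrine scale.

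The insulin genes themselves did not pass the test after median scaling. Ins1 had 150251 and 153590 FPKM in KO_REG3B-Fc, 90887.4 and 93451.4 FPKM in KO_PBS, with 165526 and 174050 FPKM in CTR_PBS. Its change was 0.09 (SE 0.07, adjusted p = 0.347) after median scaling but -0.22 on the endocrine scale and 0.72 as deposited. Ins2 had a change of 0.05 (SE 0.08, adjusted p = 0.626), which was -0.26 on the endocrine scale and 0.69 as deposited. With an equal sum without acinar, REG and insulin genes, Ins1 and Ins2 were called higher, by 0.24 and 0.20 (adjusted p = 0.00674 and 0.0209). Ins1 and Ins2 are close copies, so their separate values are uncertain. The direction of the insulin change is thus set by the scale.

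Genes on the list of beta cell maturity and surface genes stood mostly higher in treated islets. Of 23 such genes, 20 rose and 1, Rgs4, fell, with a median of 0.42. The list also holds Npy, a peptide better known from immature beta cells, which is counted among the 20. On the endocrine scale, which these genes help to set, 11 were called higher and 4 lower (median 0.13). On the deposited scale all 23 were called higher, where 86.2% of all genes were. Ucn3, urocortin 3, a peptide of mature beta cells, had 221.48 and 221.88 FPKM in KO_REG3B-Fc, 90.53 and 86.98 FPKM in KO_PBS, with 245.13 and 243.28 FPKM in CTR_PBS. It rose by 0.68 (SE 0.03, adjusted p = 1.87e-06), and the treated level lay between the other groups. Gad1, which makes the transmitter GABA, had 35.93 and 34.14 FPKM in KO_REG3B-Fc, 9.15 and 9.48 FPKM in KO_PBS, with 34.36 and 32.95 FPKM in CTR_PBS. It rose by 1.21 (SE 0.04, adjusted p = 2.6e-07), and its difference from CTR_PBS was -0.04 (SE 0.04, adjusted p = 0.616).

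Trpm5, a calcium-activated cation channel that shapes insulin secretion, had 9.85 and 9.5 FPKM in KO_REG3B-Fc against 2.65 and 2.67 FPKM in KO_PBS and rose by 1.03. Ppp1r1a, a protein phosphatase inhibitor of beta cells, had 117.28 and 127.97 FPKM in KO_REG3B-Fc, 40.3 and 38.31 FPKM in KO_PBS, with 108.35 and 112.92 FPKM in CTR_PBS. Counted per 1000 FPKM of insulin transcripts, a ratio that no library scaling touches, Ucn3 had 0.279 ± 0.00359 FPKM in KO_REG3B-Fc, 0.181 ± 0.00296 in KO_PBS and 0.297 ± 0.0105 in CTR_PBS (SD, n = 2 each). Gad1 had 0.0441 ± 0.00108 in KO_REG3B-Fc, 0.0190 ± 0.000701 in KO_PBS and 0.0409 ± 0.00243 in CTR_PBS. Iapp, the amylin gene that is co-secreted with insulin, stood at 47.9 ± 0.479 in KO_REG3B-Fc, 49.7 ± 0.0377 in KO_PBS and 47.0 ± 0.696 in CTR_PBS. Against insulin Ucn3 and Gad1 thus stood higher in KO_REG3B-Fc than in KO_PBS, while Iapp, a member of the same list, stood a little lower, each without overlap.

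Beta cell transcription factors moved the same way after median scaling. Of 15, 12 rose and the others were not called, with a median of 0.32. On the endocrine scale, which these genes help to set, the median was 0.02, with 1 called higher and 4 lower. Mafa, the factor that drives insulin transcription in mature beta cells, had 70.5 and 62.7 FPKM in KO_REG3B-Fc, 22.93 and 24.79 FPKM in KO_PBS, with 68.18 and 63.9 FPKM in CTR_PBS. It rose by 0.83 (SE 0.06, adjusted p = 1.46e-05) and overlapped with CTR_PBS. Insm1, a zinc finger factor of endocrine cells, rose by 0.41 (adjusted p = 0.00119), a call that was lost on the endocrine scale. Of 18 exocytosis genes 15 rose and Rab3d, a GTPase of secretory granules, fell by 0.33, with a median of 0.27. On the deposited scale all 18 were called higher, Rab3d included, where 86.2% of all genes were. On the endocrine scale, which these genes help to set, 4 were called higher and 2 lower (median 0.00). Of 15 hormone processing and granule genes 7 rose and Vgf fell by 0.18, with a median of 0.16. On the deposited scale all 15 were called higher, Vgf included, where 86.2% of all genes were. On the endocrine scale, which these genes other than Ins1 and Ins2 help to set, 1 was called higher and 11 lower (median -0.14). Chga, the granule protein chromogranin A, had 5715.25 and 5733.06 FPKM in KO_REG3B-Fc against 2695.77 and 2686.97 FPKM in KO_PBS and rose by 0.45 (SE 0.04, adjusted p = 4e-05).

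Among the named genes of largest rise were several outside these lists. Cox6a2, the muscle-type subunit of cytochrome c oxidase that beta cells also use, had 25.33 and 27.09 FPKM in KO_REG3B-Fc, 6.27 and 4.55 FPKM in KO_PBS, with 20.39 and 17.96 FPKM in CTR_PBS. It had the largest rise that the rule named, 1.53 (SE 0.11, adjusted p = 1.61e-05). T2 rose by 1.40, with 5.51 and 5.9 FPKM in KO_REG3B-Fc against 1.09 and 0.76 FPKM in KO_PBS. Angptl7, a secreted angiopoietin-like protein, rose by 1.13, the thymosin gene Tmsb15b2 by 1.01, and Carmil3, a regulator of actin capping, by 0.89. Vdr, the vitamin D receptor, had 33.14 and 32.02 FPKM in KO_REG3B-Fc, 10.96 and 11.3 FPKM in KO_PBS, with 31.56 and 30.1 FPKM in CTR_PBS, and rose by 0.87. Atp2a2 (SERCA2), the pump that fills the endoplasmic reticulum with calcium, had 263.87 and 258.35 FPKM in KO_REG3B-Fc, 99.65 and 100.26 FPKM in KO_PBS, with 248.61 and 251.31 FPKM in CTR_PBS, and rose by 0.75. Ccnd2, the cyclin D of beta cells, rose by 0.69. For Cox6a2, T2, Angptl7, Vdr, Atp2a2 and Ccnd2 the difference between KO_REG3B-Fc and CTR_PBS did not pass the test (-0.04 to 0.34), whereas Tmsb15b2 and Carmil3 lay above CTR_PBS by 0.57 and 0.38 (adjusted p = 0.00515 and 0.00691).

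The other islet hormones rose beyond both PBS groups. Gcg, glucagon (chromosome 2, 62474530 to 62483653, protein coding), had 12331 and 12838.3 FPKM in KO_REG3B-Fc, 4546.06 and 4778.75 FPKM in KO_PBS, with 6036.99 and 5918.73 FPKM in CTR_PBS. It rose by 0.80 against KO_PBS (SE 0.05, adjusted p = 7.76e-06) and by 0.97 against CTR_PBS (adjusted p = 2.6e-05). Sst, somatostatin (chromosome 16, 23889573 to 23891342, protein coding), whose start region is printed above, had 4412.58 and 4371.19 FPKM in KO_REG3B-Fc, 1429.9 and 1580.49 FPKM in KO_PBS, with 1767.31 and 1800.82 FPKM in CTR_PBS. It rose by 0.91 against KO_PBS (SE 0.06, adjusted p = 5.88e-06) and by 1.20 against CTR_PBS. Ppy, pancreatic polypeptide, had 5061.82 and 5343.25 FPKM in KO_REG3B-Fc, 1824.89 and 2049.08 FPKM in KO_PBS, with 2134.11 and 2328.87 FPKM in CTR_PBS. Ppy and its neighbour Pyy, peptide YY, rose by 0.79 and 0.58. In all of these the treated libraries lay above the 4 PBS libraries, which did not hold for insulin.

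Within a library these hormones also stood higher against insulin. Gcg had 15.8 ± 0.635 FPKM per 1000 FPKM of insulin transcripts in KO_REG3B-Fc, 9.50 ± 0.448 in KO_PBS and 7.27 ± 0.319 in CTR_PBS (SD, n = 2 each). Sst had 5.53 ± 0.0272 in KO_REG3B-Fc, 3.07 ± 0.253 in KO_PBS and 2.17 ± 0.0360 in CTR_PBS. Ppy had 6.55 ± 0.326 in KO_REG3B-Fc, 3.95 ± 0.370 in KO_PBS and 2.71 ± 0.0864 in CTR_PBS. The order was KO_REG3B-Fc above KO_PBS above CTR_PBS for each of these ratios, with no overlap. Ghrl, ghrelin, had 8.59 and 8.25 FPKM in KO_REG3B-Fc, 2.11 and 1.66 FPKM in KO_PBS, with 1.18 and 1.15 FPKM in CTR_PBS, and rose by 1.23 (SE 0.08, adjusted p = 6.51e-06).

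Of 8 tested delta, PP and epsilon cell genes 6 rose and the factors Hhex and Etv1 were not called, with a median of 0.69. On the endocrine scale 5 were called higher and 2 lower. Of 12 alpha cell genes 8 rose and 4 fell, with a median of 0.45. On the endocrine scale 7 were called higher and 4 lower, where 3.14% and 68.0% of all genes were. On the deposited scale 11 were called higher and 1 lower, near the 86.2% and 6.97% over all genes. Among those that rose was the transcription factor gene Irx1, at 3.97 and 3.82 FPKM in KO_REG3B-Fc against 1.49 and 1.05 FPKM in KO_PBS, a rise of 0.70. The 4 that fell were the vitamin D binding protein gene Gc (-0.26), the membrane protein genes Tmem176a and Tmem176b, which with Gc were called higher on the deposited scale, and Slc38a5 (-1.14), an amino acid transporter that acinar cells also express. Whether the share of alpha, delta or PP cells differed was not tested.

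By the rule for genes beyond both PBS groups, Rbp4, Npy, Itpr1 and Dbpht2 stood beside the hormones. After median scaling 1756 genes (14.9%) lay above all 4 PBS libraries in both KO_REG3B-Fc libraries and 1637 (13.9%) below them. Rbp4, a retinol carrier that delta cells express strongly, had 82.73 and 90.53 FPKM in KO_REG3B-Fc, 31.36 and 31.17 FPKM in KO_PBS, with 32.67 and 35.78 FPKM in CTR_PBS. Npy, neuropeptide Y, had 5.73 and 5.35 FPKM in KO_REG3B-Fc, 1.89 and 1.09 FPKM in KO_PBS, with 2.14 and 2.35 FPKM in CTR_PBS. Itpr1, the inositol trisphosphate receptor, rose by 0.78 and Dbpht2 by 0.68. On the lower side stood Reg2, Reg3d, Jchain, the globins and Lrg1, an acute phase glycoprotein. Lrg1 had 5.13 and 3.94 FPKM in KO_REG3B-Fc, 15.76 and 16.46 FPKM in KO_PBS, with 13.1 and 14.29 FPKM in CTR_PBS.

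Genes that mature beta cells keep silent, and markers of lost identity, were lower in treated islets. Of 13 tested dedifferentiation and disallowed genes, 1 of which had passed the filter only through KO_PBS and so had to fall, 12 fell and Neurog3, the endocrine progenitor factor, was not called. The median was -0.74, and on the deposited scale 6 were called lower and 1 higher. Ldha, lactate dehydrogenase A, had 7.58 and 6.67 FPKM in KO_REG3B-Fc, 15.94 and 15.38 FPKM in KO_PBS, with 9.92 and 8.28 FPKM in CTR_PBS, and fell by 1.62. Cck, cholecystokinin, had 2.48 and 1.69 FPKM in KO_REG3B-Fc against 2.26 and 4.43 FPKM in KO_PBS, so the deposited values of the groups overlap. It fell by 0.92 after median scaling (SE 0.22, adjusted p = 0.0103), with adjusted p = 0.0687 without KO_REG3B-Fc replicate 2 and 0.0523 on the deposited scale, and lay above CTR_PBS by 1.23. Ldha and others of this list are also expressed by acinar, immune and stromal cells, whose markers were higher in KO_PBS, and the part of those cells was not tested.

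**Figure D4:**
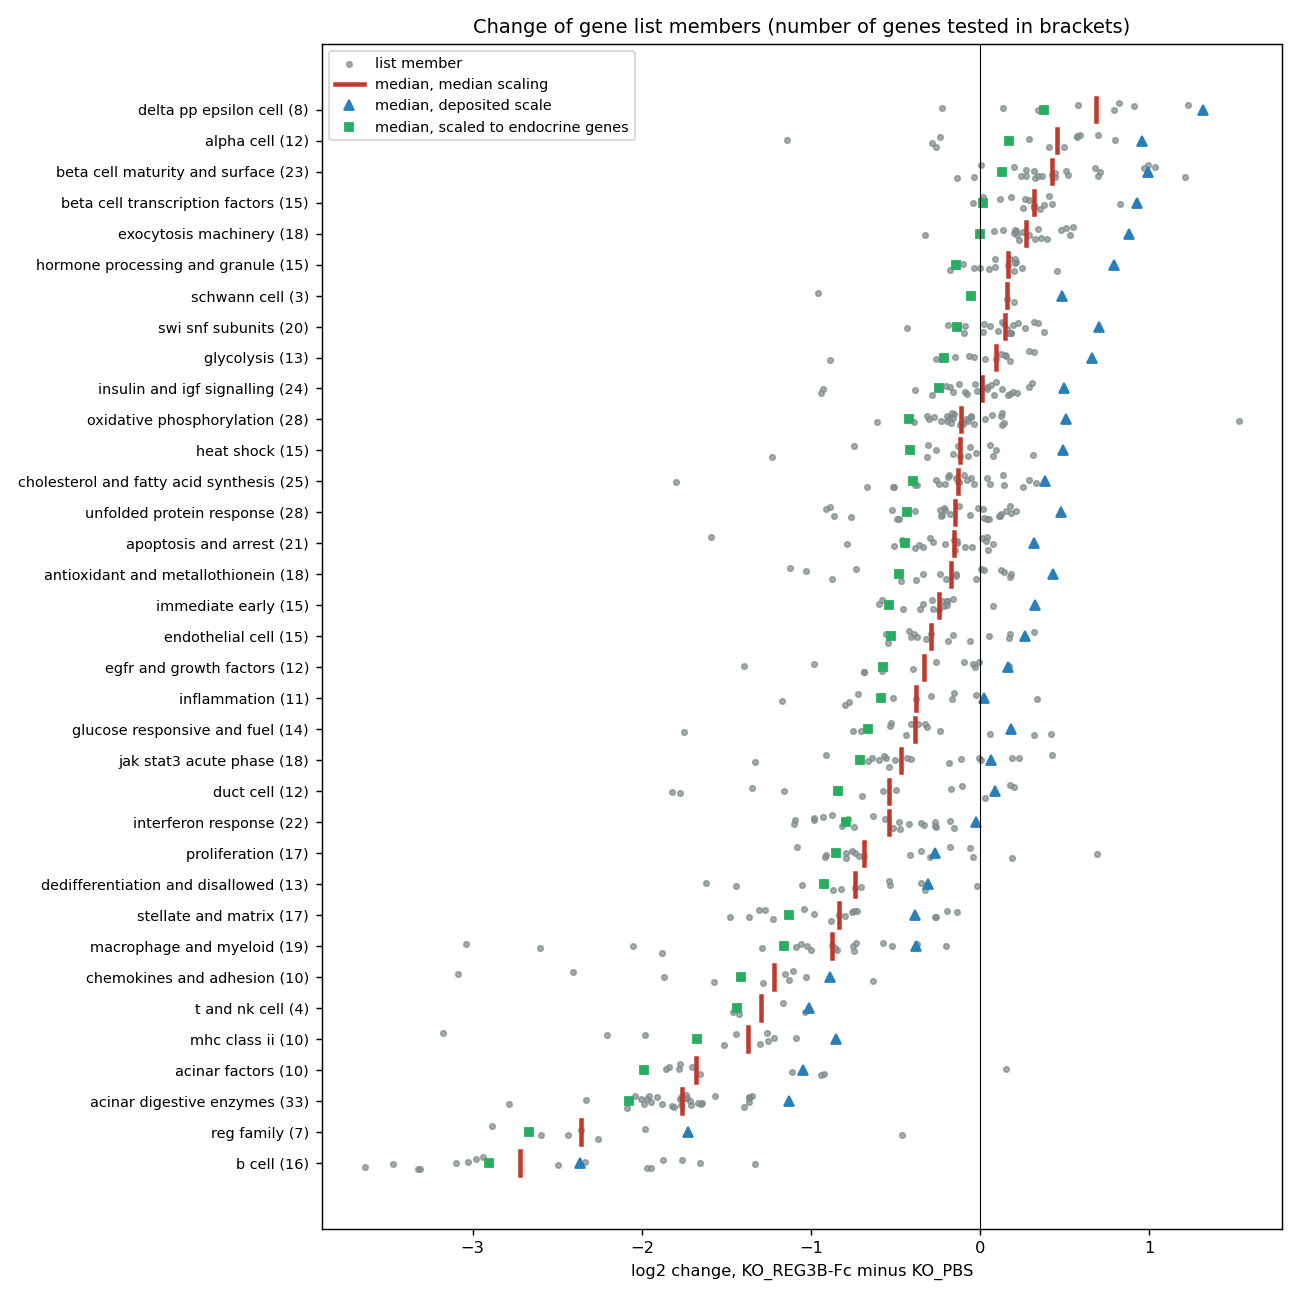
Log2 change, KO_REG3B-Fc minus KO_PBS (horizontal axis), of the tested members of 35 gene lists, ordered by their median; grey points are genes, red bars the median after median scaling, triangles the median on the deposited scale and squares the median on the endocrine scale. B cell genes (median -2.72), Reg genes and acinar enzymes (-1.77) lie lowest on each scale, while the delta, PP and epsilon cell list (0.69) and the alpha cell list (0.45) lie highest after median scaling. Of the 16 tested B cell genes, 14 passed the filter only through KO_PBS and so had to fall.

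The db islets gave the other REG3B comparison of the series, tested in its own table. There 2328 of 12507 genes (18.6%) were higher and 3335 (26.7%) lower in db_REG3B than in db_GFP, where the higher count was 1530 on the deposited scale and 1546 without db_GFP replicate 2. Acinar content was low in these libraries: Prss2 had 54.98 and 56.18 FPKM in db_REG3B against 65.56 and 67.86 FPKM in db_GFP. Reg3b had 10.41 and 9.98 FPKM in db_REG3B against 21.75 and 26.51 FPKM in db_GFP and fell by 1.11 (SE 0.09, adjusted p = 5.07e-05). Among 11454 genes tested in both tables, 34.8% of the 2346 genes that rose in KO_REG3B-Fc were higher in db_REG3B, where 19.9% of all genes were, and 11.8% were lower. Of the 2680 genes that fell, 50.3% were lower in db_REG3B, against 23.2% of all genes, and 12.9% were higher. Taken the other way, 35.8% of the genes higher and 50.7% of the genes lower in db_REG3B were called in the same direction in KO_REG3B-Fc. The log2 changes of both comparisons correlated across these genes with Pearson's r of 0.468, a description over genes that are not independent replicates.

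Beta cell maturity and matrix genes moved the same way in both. Of the 23 maturity and surface genes 18 were higher and 3 lower in db_REG3B (median 0.36). Mafa had 395.11 and 399.87 FPKM in db_REG3B against 132.79 and 125.5 FPKM in db_GFP, a change of 1.67, and Gad1, Trpm5, Cox6a2 and Ppp1r1a changed by 1.25, 1.64, 1.39 and 1.33 there. Of 17 matrix genes 16 were lower in db_REG3B (median -2.16), Col1a1 with 58.25 and 62.05 FPKM in db_REG3B against 381.17 and 372.37 FPKM in db_GFP. Of 13 dedifferentiation genes 11 were lower and 1 higher, and Cck changed by -2.83. Lrg1 had 0.63 and 0.68 FPKM in db_REG3B against 45.37 and 45.19 FPKM in db_GFP.

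Several hormones and Nupr1 differed in direction between the comparisons. Gcg had 21326 and 21579.4 FPKM in db_REG3B against 40447.6 and 41225.8 FPKM in db_GFP and fell by 0.87 there, and 11 of 12 alpha cell genes were lower (median -0.63). Ppy and Pyy fell by 0.54 and 0.86 in db_REG3B, while Sst did not pass the test there (-0.04, adjusted p = 0.545). Of the 8 delta, PP and epsilon cell genes 2 were higher and 4 lower (median -0.09). Ins1 and Ins2 were higher in db_REG3B, by 1.06 and 1.05. Nupr1, a stress-induced nuclear protein, had 363.3 and 372.27 FPKM in KO_REG3B-Fc against 726.76 and 706.34 FPKM in KO_PBS and fell by 1.59. In the db islets it had 267.94 and 272.73 FPKM in db_REG3B against 145.97 and 142.57 FPKM in db_GFP and rose by 0.96. The difference between the knockout and db changes was not tested, since mice, control and table all differ.

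**Figure D5:**
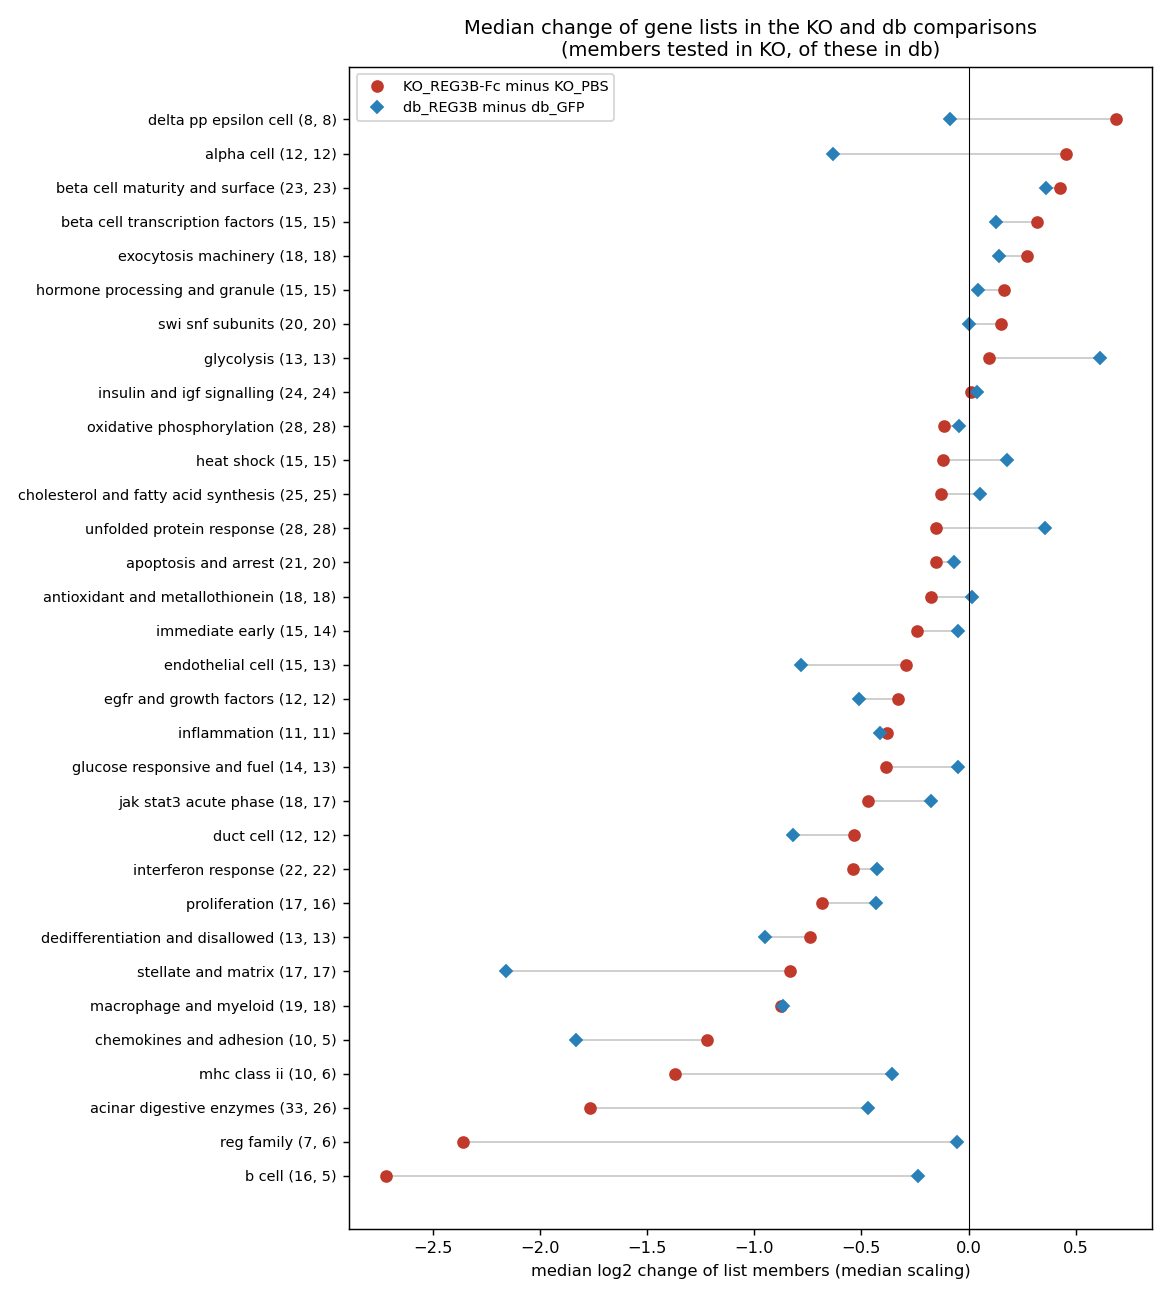
Median log2 change of gene list members (horizontal axis, median scaling) in KO_REG3B-Fc minus KO_PBS (circles) and db_REG3B minus db_GFP (diamonds), for lists with at least 5 members tested in db; brackets give the members tested in each. Stellate and matrix genes are low in both (-0.83 and -2.16), maturity and surface genes higher in both (0.42 and 0.36), and alpha cell genes lie on opposite sides (0.45 and -0.63).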

How the data were processed

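Paired-end mRNA libraries of pooled mouse islets were analysed from the table of 6 libraries (KO_REG3B-Fc, KO_PBS and CTR_PBS, 2 each) and, separately, the table of 4 db libraries; the tables of other groups were not used here. The authors deposited FPKM per gene, and the deposited tables also hold the authors' own log2 fold changes, each with a p-value and an adjusted p-value, from DESeq2 per the file headers. The build is GRCm38.p6 per the submitters' processing notes; the aligner and counting program are not given in the sources used here. No counts were used, so depth is unknown and no counting interval was computed. 

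Genes that reached 1 FPKM in 2 or more libraries were kept. Each library was divided by its median ratio to the geometric mean library, and log2(scaled FPKM + 1) was tested in R 4.3.3 by limma 3.58.1 (moderated by empirical Bayes, trend on; 3 groups in 1 fit with 3 residual degrees of freedom, or 2 for db), with two-sided p-values adjusted by Benjamini-Hochberg across every tested gene and a threshold of 0.05. SE is the fit's standard error and SD the spread of 2 libraries. The fit was also run on simulated data with no difference in library make-up and no scaling step, so that run does not bear on the choice of scale. Alternatives were the deposited scale, a scale set to endocrine genes, an equal sum without acinar, REG and insulin genes, a pseudocount of 0.1, no filter, only the 4 KO libraries, a replicate block, and each library left out. Replicate numbers were not taken to pair the libraries, because the deviations of same-numbered KO_REG3B-Fc and KO_PBS libraries correlated at -0.02.

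Genes were named by rule: Smarcd3, Reg3b, Extl3, Ins1, Ins2, Gcg and Prss2; the 12 higher and 12 lower genes of largest change whose higher group reached 5 FPKM, with no overlap and the same sign on the deposited scale; the 8 and 8 of largest change at 100 FPKM or more outside the acinar and REG lists; up to 4 passing members of each of 35 lists; and up to 8 and 8 genes beyond all 4 PBS libraries. Predicted genes were left out, and a few genes that the rule names are not reported here. Reg3a and the list members named as exceptions were chosen after their values were seen. Of 660 listed genes 651 were found, and 4 genes stand in more than 1 list. The genes, lists and tests were chosen with earlier results of these data known, so the lists carry no test of their own and are given beside the counts over all genes.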

Additional observations from a re-analysis of the deposited data

How the results depend on the processing

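The counts of called genes turned on how libraries were scaled. Against 2361 genes higher and 2927 lower in KO_REG3B-Fc than in KO_PBS, the deposited scale gave 10157 higher and 822 lower, endocrine scaling 370 and 8019, and an equal sum without acinar, REG and insulin genes 5092 and 1918. Leaving out each library in turn gave 1635 to 2110 higher and 2366 to 2752 lower. The replicate block gave 2276 higher and 2867 lower and changed no call of the 86 genes followed through all alternatives. In db_REG3B against db_GFP the higher count was 1530 on the deposited scale and 1546 to 2029 with a library left out. On the deposited scale the sign turned for Smarcd3 (0.23) and Extl3 (0.13), and for the medians of the duct cell (0.0895), endothelial (0.26), inflammation (0.0219), JAK-STAT3 (0.0629), unfolded protein response (0.48), antioxidant (0.43), glucose-responsive (0.18), oxidative phosphorylation (0.51), cholesterol and fatty acid synthesis (0.39), apoptosis (0.32), immediate early (0.33), EGFR (0.16) and heat shock (0.49) lists. With endocrine scaling it turned for Ins1 (-0.22), Ins2 (-0.26) and the medians of the hormone processing (-0.14), Schwann cell (-0.0522), glycolysis (-0.21), SWI/SNF (-0.13) and insulin signalling (-0.25) lists. Smarcd3 was called lower on that scale (-0.27). The equal sum turned the oxidative phosphorylation and heat shock medians to 0.0326 and 0.0249. Without KO_PBS replicate 2 Smarcd3 stood at 0.0574, and with a library left out the insulin signalling median ran between -0.00412, without KO_PBS replicate 1, and 0.0353. The calls of Insm1 and Hspb6 were lost with endocrine scaling, and that of Cck on the deposited scale and without KO_REG3B-Fc replicate 2. Of the 86 genes, 81 kept direction and call on the deposited scale, 81 with endocrine scaling and 86 with a pseudocount of 0.1, without the filter and with only the 4 KO libraries, while the equal sum kept 84 and made Ins1 and Ins2 pass (0.24 and 0.20). The cause of these shifts beyond the scaling itself was not tested. With 2 libraries a group, pooled mice and unknown depth, small changes and genes near 1 FPKM are the least certain.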

Other observations

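The direction of most metabolic and stress lists depended on the scale. Over all genes tested, 20.0% rose and 24.8% fell after median scaling. On the deposited scale 86.2% were called higher and 6.97% lower, and on the endocrine scale 3.14% higher and 68.0% lower. List counts near these shares are not a result about the list. Of 14 glucose-responsive and fuel genes 11 fell and 2 rose in KO_REG3B-Fc against KO_PBS, with a median of -0.39 that turned to 0.18 on the deposited scale, where 9 were called higher and 3 lower. Txnip, a thioredoxin inhibitor induced by glucose, had 347.02 and 321.62 FPKM in KO_REG3B-Fc, 370.43 and 354.78 FPKM in KO_PBS, with 146.45 and 145.84 FPKM in CTR_PBS. It fell by 0.75 against KO_PBS (SE 0.04, adjusted p = 1.82e-06) and stayed above CTR_PBS by 1.09 (adjusted p = 2.83e-06). Of 25 cholesterol and fatty acid synthesis genes 10 fell and 4 rose, against 21 called higher and 1 lower on the deposited scale, and Scd1, a fatty acid desaturase, fell by 1.80. Of 28 oxidative phosphorylation genes 13 fell and 4 rose, Cox6a2 among them, against 27 higher and 0 lower on the deposited scale and 1 higher and 27 lower on the endocrine scale. Of 13 glycolysis genes, 1 of which had passed the filter only through KO_PBS, 4 rose and 2 fell, against 12 higher and 1 lower on the deposited scale and 0 higher and 9 lower on the endocrine scale.

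Of 28 unfolded protein response genes 14 fell and 6 rose after median scaling (median -0.15, and 0.48 on the deposited scale, with 22 called higher and 4 lower), while in db_REG3B against db_GFP 25 of 28 were higher and 0 lower (median 0.36). Of 18 antioxidant genes 10 fell and 2 rose, against 13 higher and 4 lower on the deposited scale. Mt1, a metal-binding stress protein, had 378.9 and 377.75 FPKM in KO_REG3B-Fc, 501.82 and 496.71 FPKM in KO_PBS, with 534.34 and 541.48 FPKM in CTR_PBS. Of 18 JAK-STAT3 and acute phase genes 12 fell and Socs2, Cish and Il6ra rose, against 9 higher and 3 lower on the deposited scale and 1 higher and 15 lower on the endocrine scale. Il22ra1, a subunit of the interleukin-22 receptor, had 2.2 and 2.12 FPKM in KO_REG3B-Fc against 4.93 and 4.38 FPKM in KO_PBS and fell by 1.33. Of 17 proliferation genes 12 fell, 4 of the 17 having passed the filter only through KO_PBS, and the cyclins Ccnd1 and Ccnd2 rose. On the deposited scale 7 were called higher and 9 lower, and on the endocrine scale 1 higher and 16 lower, Ccnd1 among the lower. Top2a, a topoisomerase of dividing cells, had 0.99 and 1.05 FPKM in KO_REG3B-Fc, 2.04 and 1.78 FPKM in KO_PBS, with 0.38 and 0.35 FPKM in CTR_PBS. Of 15 immediate early genes 14 fell, against 12 higher and 0 lower on the deposited scale. Of 21 apoptosis and arrest genes 12 fell and 0 rose, against 16 higher and 2 lower on the deposited scale. Of 15 heat shock genes 6 fell, against 13 higher and 2 lower on the deposited scale, and Hspb6, a small heat shock protein, rose by 0.31 and stayed below CTR_PBS, by -0.91. Of 24 insulin and IGF signalling genes, 1 of which had passed the filter only through KO_PBS, 6 rose and 5 fell. On the deposited scale 22 were called higher and 2 lower, and on the endocrine scale 0 higher and 18 lower. On each scale these counts were near the shares over all genes. Of 12 EGFR and growth factor genes 7 fell, against 6 higher and 3 lower on the deposited scale. Fgf21, a stress hormone of liver and pancreas, had 4.16 and 4.34 FPKM in KO_REG3B-Fc against 7.98 and 8.92 FPKM in KO_PBS.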
